A study of Homo sapiens with 6 samples.

Results

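The FOS, JUN and EGR immediate early factors are 10 of the 60623 genes in a deposited table of expression in LX2, a human hepatic stellate cell line in wide use. They were taken by gene name: FOS, FOSB, FOSL1, FOSL2, JUN, JUNB, JUND, EGR1, ATF3 and IER3. RNA was sequenced from 3 libraries of cells transfected with siSHMT2, labelled as SHMT2 knockdown, and from 3 libraries transfected with the control siRNA siNC, labelled as wild type. All 6 libraries came from cells grown in medium with 2% fetal bovine serum and collected after 36 h of transfection, and no stimulus is named in the labels. LX2 is a single line, and untransfected cells and other siRNAs against SHMT2 were not analysed here. Whether replicates were separate cultures is not in the labels, so the spread behind each p-value is that between these libraries and may be technical.

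Immediate early genes are transcribed within minutes of a growth factor, serum or stress signal, without new protein synthesis. Mitogen-activated protein kinases reach them through the serum response factor SRF and its ETS partners at CArG boxes, and through CREB and AP-1 sites. FOS and JUN proteins carry a basic region and a leucine zipper and bind DNA in pairs as AP-1: JUN proteins pair with each other or with FOS proteins, while FOS proteins need a JUN partner. EGR1 is a zinc finger factor that binds GC-rich sites. In hepatic stellate cells AP-1 and EGR1 are known for their part in activation, proliferation and the production of matrix-degrading enzymes and inflammatory factors.

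The deposited FPKM values (fragments per length of gene and per library total) correspond to between 14722344 and 15669139 reads per library. SHMT2 had 2.26, 2.10 and 2.42 FPKM in the siSHMT2 libraries, against 40.8, 56.3 and 45.1 FPKM in the siNC libraries, and the groups did not overlap. An exact permutation test, two-sided, gave p = 0.1, the smallest that 3 against 3 libraries allow. The siNC libraries lay further apart than the siSHMT2 libraries, with a median SD over genes of 0.105 in siSHMT2 and 0.191 in siNC on the log2(FPKM + 1) scale. Of 12 stellate markers 7 passed a mean of 1 FPKM, with COL1A1, VIM and TIMP1 the highest, and VIM, an intermediate filament gene, was called lower in siSHMT2. LRAT, the retinyl ester enzyme of quiescent stellate cells, was listed at 0 in all libraries, and ACTA2, the actin of activated stellate cells, averaged 0.782 and 0.428 FPKM in siSHMT2 and siNC. The summed stellate markers ran from 1273 to 1490 FPKM in siSHMT2, against 1673 to 2566 FPKM in siNC, nearly all of it TIMP1, VIM and COL1A1. Of the 7 that passed only VIM was called, and the groups overlapped for TIMP1 and COL1A1. Of 7 hepatocyte, 4 endothelial, 5 macrophage or leukocyte and 4 cholangiocyte markers, 3 passed: CD14, KRT7 and SOX9. The summed levels ran from 0.299 to 0.457 FPKM in siSHMT2 against 0.332 to 1.36 FPKM in siNC for hepatocyte markers, and from 0.310 to 0.429 against 0.416 to 0.626 FPKM for endothelial markers. Those of macrophages and leukocytes ran from 13.2 to 15.1 FPKM in siSHMT2 against 14.3 to 19.2 FPKM in siNC, nearly all of it CD14, and those of cholangiocytes from 8.72 to 9.64 against 9.82 to 11.2 FPKM. ALB, PTPRC and CD163 were at or near 0. The part of these marker differences in the results below was not tested. In bulk RNA, fewer cells of a kind and less RNA per cell cannot be told apart.

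The clearest change among the 10 genes was the fall of FOSL1. FOSL1, which encodes FRA-1 and was the most abundant FOS family transcript, fell to 43.3% of its siNC mean. JUND, the most abundant JUN family transcript after knockdown, was higher, at 1.70 times its siNC mean. JUNB, FOSL2 and FOS were lower. Of the 6 fits that each left out a library, FOSL1 was called in 6, FOSL2 in 2, and JUND, JUNB and FOS in 1 each. JUN, EGR1, FOSB, ATF3 and IER3 did not pass the test. Genes with a mean of at least 1 FPKM over the 6 libraries (10865 genes) were tested with limma on log2(FPKM + 1), with Benjamini-Hochberg adjustment over all of them and a threshold of 0.05 for a call. All fold changes below are siSHMT2 minus siNC differences on that scale, on which changes of low genes look smaller than they are. By this test 4 of the 10 genes were lower, beside 9.85% of all genes tested, and 1 was higher, beside 6.07%. The groups did not overlap for 5 genes lower in siSHMT2, beside 18.6% of genes tested, and for 1 higher, beside 17.9%. After rescaling to TPM (values scaled to a common sum) 686 of all genes were higher and 620 lower, with FPKM from plain read sums 796 and 767, and with voom 914 and 853, against 659 and 1070 as reported. All 10 passed the filter, but FOS and IER3 averaged below 1 FPKM in siSHMT2 and passed through their siNC values.

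**Figure D1:**
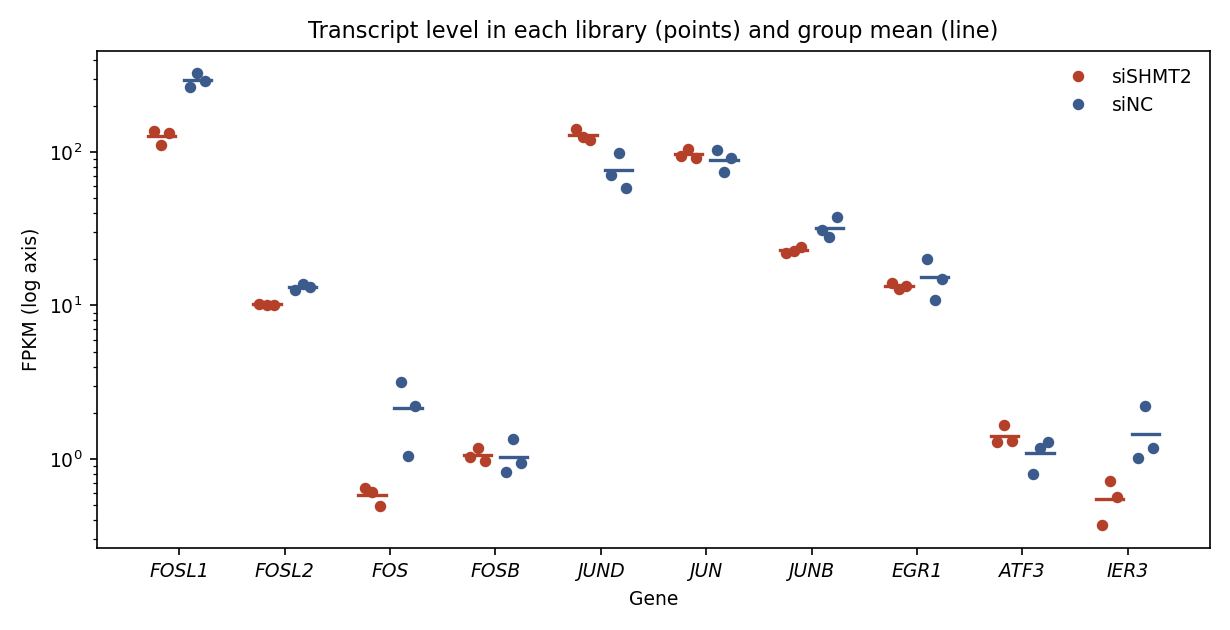
FPKM on a log axis of each gene in the 3 siSHMT2 libraries (red, left of each pair) and the 3 siNC libraries (blue, right), with lines at the group means. The FOSL1 points lie between 112 and 137 FPKM in siSHMT2 and between 266 and 326 FPKM in siNC, while those of JUN, EGR1, FOSB and ATF3 overlap.

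FOSL1 lies on chromosome 11 (65892049 to 65900573, minus strand, up to 4 exons). It had 137, 112 and 133 FPKM in the siSHMT2 libraries, from 4150, 3499 and 3977 reads, against 266, 326 and 292 FPKM in the siNC libraries, from 8783, 8906 and 8667 reads. Every siSHMT2 library lay far below every siNC library, and the SD was 10.7% of the mean in siSHMT2 and 10.2% in siNC. FOSL1 fell by 1.20 (SE 0.143, 95% interval -1.53 to -0.87, limma adjusted p = 0.00174). It was called in all 15 alternative analyses, with log2 fold changes from -1.27 to -1.11. FOSL1 ranked 228 of 10865 tested genes by mean FPKM, and 130 genes (1.20%) had a more negative fold change. The pseudogene FOSL1P1 held no more than 2 reads in any library.

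FOSL2, which encodes FRA-2, lies on chromosome 2 (28392448 to 28417317, plus strand). It had 10.3, 10.1 and 10.1 FPKM in siSHMT2, against 12.5, 13.9 and 13.2 FPKM in siNC. The groups did not overlap, although the difference was small: FOSL2 fell by 0.35 (SE 0.0895, limma adjusted p = 0.0362). Leaving out siNC replicate 3 ended the call (adjusted p = 0.0773), as did leaving out siSHMT2 replicate 1, 2 or 3 (0.146, 0.131 and 0.142), at log2 fold changes from -0.36 to -0.34. It was also lost after rescaling to TPM (0.166), with FPKM from plain read sums (0.0870) or with voom (0.0843), at -0.28, -0.28 and -0.30. Its interval overlaps 2 other genes in the table, the higher of which averaged 1.28 FPKM.

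FOS, the classical serum-induced member, lies on chromosome 14 (75278826 to 75282230, plus strand). It had 0.646, 0.606 and 0.496 FPKM in siSHMT2, from 33, 32 and 25 reads. In siNC it had 3.16, 1.04 and 2.21 FPKM, from 176, 48 and 111 reads. The siNC libraries differed widely among themselves, with replicate 2 lowest, but the groups did not overlap. FOS fell by 0.93 (SE 0.241, limma adjusted p = 0.0375). With a pseudocount of 0.1 the fall was 1.59, and with voom on recovered reads 1.66. Without siNC replicate 2 the log2 fold change was -1.21 (adjusted p = 0.00388). The call was lost when siNC replicate 1 or 3 was left out (0.0606 and 0.103), and when siSHMT2 replicate 1, 2 or 3 was (0.102, 0.102 and 0.111), at log2 fold changes from -0.96 to -0.70. It was lost too with no filter (0.153), after rescaling to TPM (0.0651) or with FPKM from plain read sums (0.0572), at log2 fold changes of -0.93, -1.26 and -0.92.

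FOSB lies on chromosome 19 (45467995 to 45475179, plus strand). It had 1.03, 1.17 and 0.968 FPKM in siSHMT2, against 0.823, 1.34 and 0.938 FPKM in siNC. The siSHMT2 values sit inside the siNC range. The log2 fold change was 0.02 (95% interval -0.29 to 0.34, limma adjusted p = 0.929). FOSB overlaps ERCC1 on the other strand, which averaged 37.9 FPKM, and no source used here says whether counting used strand. Without strand, reads where the genes overlap cannot be told apart, and their number was not measured.

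The FOS family as a whole summed to 149, 124 and 145 FPKM in siSHMT2, against 282.5, 342 and 308 FPKM in siNC. FOSL1 supplied 91.5% ± 0.936 of this sum in siSHMT2 and 94.7% ± 0.540 in siNC (SD, n = 3 each). FOSL2 supplied 7.34% ± 0.720 in siSHMT2 and 4.26% ± 0.189 in siNC. The ratio of FOSL1 to FOSL2 was 13.3, 11.1 and 13.3 in siSHMT2, against 21.2, 23.5 and 22.1 in siNC. Within a library this ratio does not depend on scaling, and the groups did not overlap. FOS and FOSB each supplied at most 1.12% of the family in any library.

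JUND, the JUN family gene known for steady rather than induced expression, is a single-exon gene on chromosome 19 (18279694 to 18281622, minus strand). It had 141, 126 and 119 FPKM in siSHMT2, from 4371, 4015 and 3631 reads. In siNC it had 71.1, 98.1 and 58.5 FPKM, from 2400, 2741 and 1775 reads. All siSHMT2 libraries were above all siNC libraries, and siNC replicate 2 came closest to them. JUND rose by 0.78 (SE 0.192, limma adjusted p = 0.0310), and 173 of 10865 tested genes (1.59%) had a more positive fold change. The call was lost on leaving out siNC replicate 1 or 3 (adjusted p = 0.0535 and 0.0763), or siSHMT2 replicate 1, 2 or 3 (0.126, 0.0934 and 0.0792), at log2 fold changes from 0.61 to 0.84, and with no filter (0.112, log2 fold change 0.78). It was called after rescaling to TPM, with FPKM from plain read sums and with voom, with log2 fold changes of 0.88, 0.86 and 0.87.

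JUN, the growth-promoting partner of FOS that activates its own promoter, is a single-exon gene on chromosome 1 (58780791 to 58784047, minus strand). It had 93.8, 104.8 and 91.8 FPKM in siSHMT2, against 102.5, 73.9 and 91.8 FPKM in siNC. The groups overlapped, with siNC replicate 2 the lowest library. The log2 fold change was 0.12 (95% interval -0.22 to 0.47, limma adjusted p = 0.623), and it was -0.01 without siNC replicate 2.

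JUNB, which often opposes JUN in growth control, is a single-exon gene on chromosome 19 (12791486 to 12793315, plus strand). It had 22.0, 22.6 and 24.0 FPKM in siSHMT2, against 30.9, 28.1 and 37.5 FPKM in siNC. The groups did not overlap. JUNB fell by 0.47 (SE 0.126, limma adjusted p = 0.0435). The call was lost without siNC replicate 1 or 3 (adjusted p = 0.0515 and 0.0929), at log2 fold changes of -0.49 and -0.35. It was also lost without siSHMT2 replicate 1, 2 or 3 (0.171, 0.137 and 0.114), at -0.44, -0.46 and -0.50. Without those siSHMT2 libraries fewer of all genes were called lower as well (498, 592 and 547, against 1070). The JUNB call was lost too with no filter (0.104), after rescaling to TPM (0.132), with FPKM from plain read sums (0.0918) or with voom (0.0925), at -0.47, -0.39, -0.39 and -0.41. HOOK2, on the other strand, overlaps it and averaged 3.86 FPKM, with the same limit.

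JUN family transcripts summed to 257, 253 and 235 FPKM in siSHMT2, against 204.5, 200.2 and 188 FPKM in siNC. The sum was also higher in every siSHMT2 library on the TPM scale and with plain read sums. JUND supplied 55.0%, 49.6% and 50.7% of the sum in siSHMT2, against 34.8%, 49.0% and 31.1% in siNC, where siNC replicate 2 nearly reached the siSHMT2 values. The ratio of JUND to JUN was 1.51, 1.20 and 1.30 in siSHMT2, against 0.694, 1.33 and 0.637 in siNC, so here the groups overlapped. JUNB supplied 9.24% ± 0.856 in siSHMT2 and 16.4% ± 3.16 in siNC (SD, n = 3 each). The ratio of summed FOS family to summed JUN family FPKM was 0.580, 0.489 and 0.617 in siSHMT2, against 1.38, 1.71 and 1.64 in siNC. FOS family transcripts thus outnumbered JUN family transcripts per length in every siNC library and in none of the siSHMT2 libraries.

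**Figure D2:**
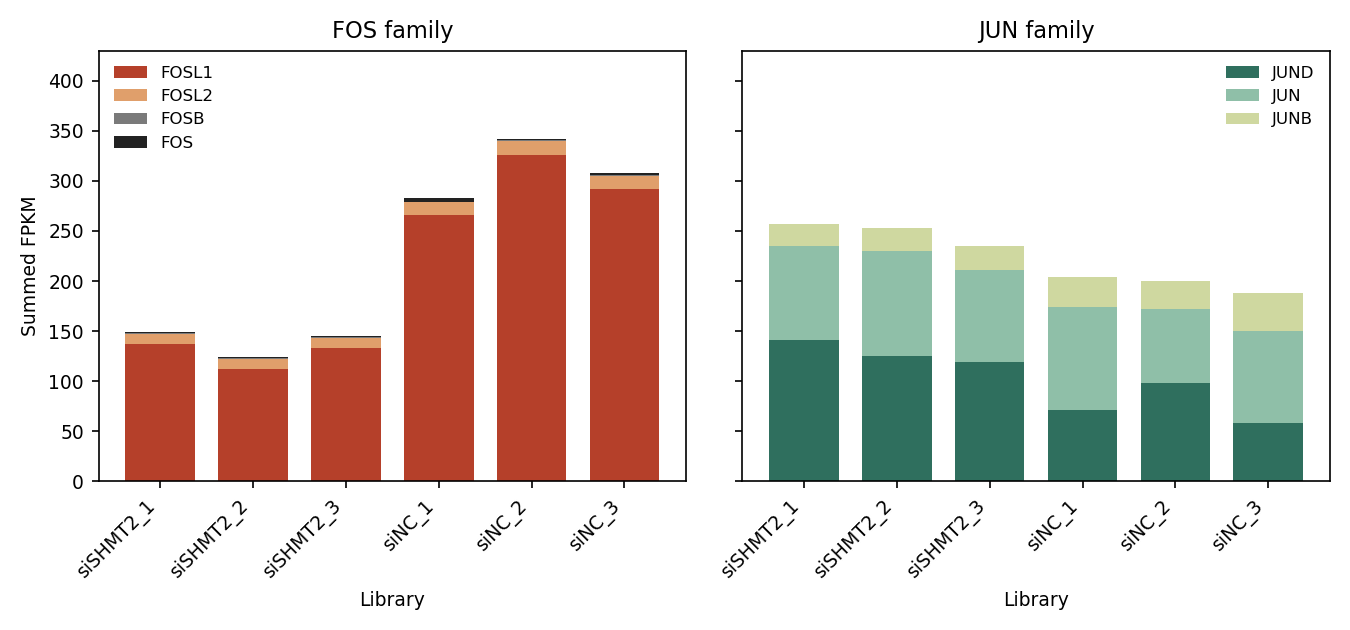
Summed FPKM of the FOS family (left panel) and JUN family (right panel) in each library, siSHMT2 libraries left of siNC libraries, with a coloured segment for each gene. The FOS family bars reach 124 to 149 FPKM in siSHMT2 and 282 to 342 FPKM in siNC, nearly all FOSL1, while the JUN family bars reach 235 to 257 FPKM in siSHMT2 and 188 to 204 FPKM in siNC.

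EGR1 lies on chromosome 5 (138465479 to 138469303, plus strand, 2 exons). It had 14.0, 12.9 and 13.4 FPKM in siSHMT2, against 20.0, 10.8 and 14.9 FPKM in siNC. The siSHMT2 libraries clustered inside the wide siNC range. The log2 fold change was -0.13 (95% interval -0.58 to 0.31, limma adjusted p = 0.692), and it was 0.07 without siNC replicate 1, the highest library. A fall of the size measured for JUNB lies inside this interval.

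ATF3, a stress-induced factor of the ATF and CREB family that can pair with JUN proteins, lies on chromosome 1 (212565334 to 212620777, plus strand). It had 1.28, 1.66 and 1.32 FPKM in siSHMT2, against 0.792, 1.18 and 1.29 FPKM in siNC. The groups met at 1.28 FPKM in siSHMT2 and 1.29 FPKM in siNC. The log2 fold change was 0.22 (95% interval -0.10 to 0.54, limma adjusted p = 0.345).

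IER3, an immediate early survival gene and a target of NF-kB that does not encode a DNA-binding factor, lies on chromosome 6 (30743199 to 30744548, minus strand). It had 0.370, 0.715 and 0.562 FPKM in siSHMT2, from 8, 16 and 12 reads, against 1.02, 2.20 and 1.18 FPKM in siNC, from 24, 43 and 25 reads. No siSHMT2 library reached a siNC library, but the reads were few. The log2 fold change was -0.65 (SE 0.196, limma adjusted p = 0.0631), or -1.23 with a pseudocount of 0.1 (0.0640) and -1.26 with voom (0.0770). It was called without siNC replicate 1 (0.0405, log2 fold change -0.77) and with array weights (0.00637).

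**Figure D3:**
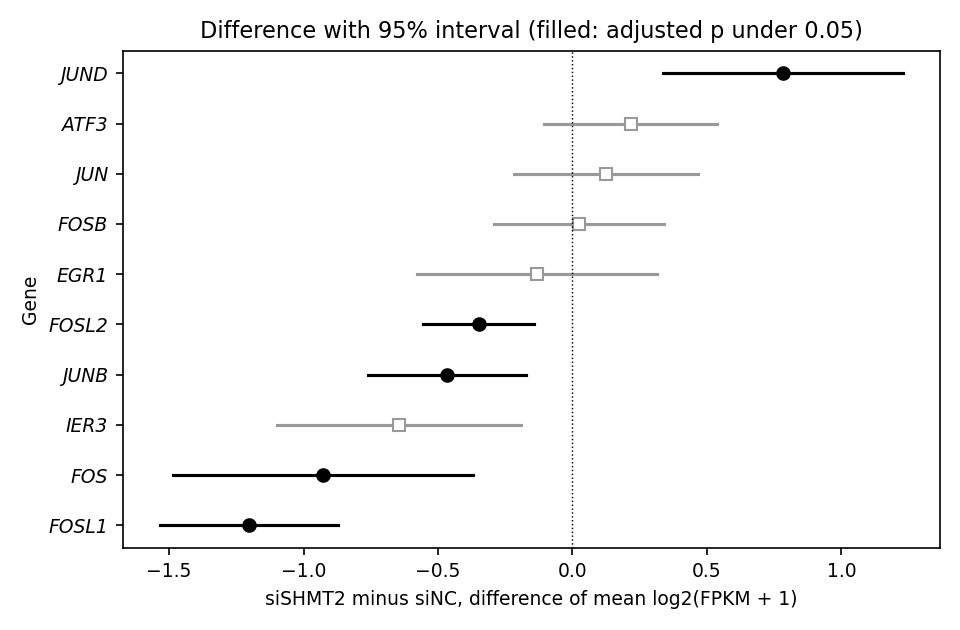
siSHMT2 minus siNC difference of mean log2(FPKM + 1) for each gene (x axis) with its 95% interval from limma, filled where the adjusted p was under 0.05. FOSL1 at -1.20 and JUND at 0.78 are at the ends, and the intervals of EGR1, FOSB, JUN and ATF3 include 0.

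In siSHMT2 the levels per length ran, from the top, JUND at 129, FOSL1 at 127, JUN at 96.8, JUNB at 22.9, EGR1 at 13.4, FOSL2 at 10.2, ATF3 at 1.42, FOSB at 1.06, FOS at 0.583 and IER3 at 0.549 FPKM. Here JUND and FOSL1 overlapped, as did FOS and IER3. In siNC the means ran FOSL1 at 294, JUN at 89.4, JUND at 75.9, JUNB at 32.2, EGR1 at 15.2, FOSL2 at 13.2, FOS at 2.14, IER3 at 1.46, ATF3 at 1.09 and FOSB at 1.04 FPKM. There only FOSL1 over JUN, JUND over JUNB, JUNB over EGR1 and FOSL2 over FOS were separated in all libraries.

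Gene starts were compared in RefSeq promoters (GRCh38.p14, 250 bases before to 50 after the start), which were found for 8 of the 10 genes, with 2 starts for ATF3. FOSL1 and IER3 had no entry. The letters searched on both strands were TGACGTCA (a CREB and ATF site), TGANTCA (an AP-1 site), TGACATCA (the AP-1-like site known from the JUN promoter), GCGNGGGCG (an EGR1 site), TATAAA and the CArG box bound by SRF. Among the 35116 promoters in the table these were held by 1.85%, 7.71%, 2.61%, 9.43%, 11.5% and 1.29%, in that order. JUND and JUN are shown because the JUND transcript was higher in siSHMT2 and the JUN transcript was not called, FOS for the lower genes, and EGR1 for its pair of CArG boxes. Matches are in capitals and positions are counted from the start.
JUND (chr19:18281573-18281872, minus strand): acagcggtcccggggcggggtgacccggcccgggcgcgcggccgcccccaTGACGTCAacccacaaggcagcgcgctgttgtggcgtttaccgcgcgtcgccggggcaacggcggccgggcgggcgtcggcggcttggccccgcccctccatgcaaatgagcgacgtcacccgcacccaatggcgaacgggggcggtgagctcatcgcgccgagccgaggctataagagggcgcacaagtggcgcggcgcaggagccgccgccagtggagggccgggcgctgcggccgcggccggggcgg
JUN (chr1:58783998-58784297, minus strand): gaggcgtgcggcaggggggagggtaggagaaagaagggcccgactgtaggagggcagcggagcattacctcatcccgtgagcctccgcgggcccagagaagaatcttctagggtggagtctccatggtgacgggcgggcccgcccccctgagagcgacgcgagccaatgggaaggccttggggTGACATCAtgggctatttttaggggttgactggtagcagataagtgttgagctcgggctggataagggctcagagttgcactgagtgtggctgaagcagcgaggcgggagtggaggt
FOS (chr14:75278578-75278877, plus strand): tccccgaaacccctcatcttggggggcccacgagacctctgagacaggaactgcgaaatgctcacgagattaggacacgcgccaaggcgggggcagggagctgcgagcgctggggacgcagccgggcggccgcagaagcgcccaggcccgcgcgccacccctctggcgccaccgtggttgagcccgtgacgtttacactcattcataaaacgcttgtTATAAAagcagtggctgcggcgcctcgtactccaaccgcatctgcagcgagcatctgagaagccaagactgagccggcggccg
EGR1 (chr5:138465229-138465528, plus strand): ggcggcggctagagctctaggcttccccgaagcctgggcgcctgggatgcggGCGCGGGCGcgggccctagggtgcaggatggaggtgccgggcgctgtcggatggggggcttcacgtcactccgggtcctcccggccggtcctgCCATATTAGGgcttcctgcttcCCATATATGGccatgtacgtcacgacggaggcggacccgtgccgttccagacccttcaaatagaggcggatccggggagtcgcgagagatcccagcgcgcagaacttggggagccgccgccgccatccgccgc
JUND held TGACGTCA at -200 to -193, and JUN held TGACATCA at -67 to -60. FOS held TATAAA at -33 to -28, as did JUNB at -31 and FOSB at -30, so this word was at nearly the same distance in genes called lower and in FOSB, which was not called. EGR1 held CArG boxes at -105 and -83 and an EGR1 word at -198. FOSL2 held TGACTCA at 5 bases after the start, and ATF3 held TGACATCA at -123 of the start listed first. Bases further than 250 before the start were not searched, so a CArG box or other word not found here, as in FOS, may lie outside. Only the letters given above were searched, so a site that differs from them would be missed inside these stretches too. A match is a description of letters and not of a bound site.

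Many immediate early transcripts are known for short half-lives set by AU-rich words in the 3′ end of the message. The longest annotated 3′ untranslated region in GENCODE release 29 was searched for TATTTAT, the core of such elements. It was found in 8 of the 10 genes, beside 34% of 9372 protein-coding genes tested. JUNB and EGR1 held none. FOS held 2 and IER3 4, and 1 stretch each of FOS, IER3 and FOSL1 is shown, with the word in capitals, because their groups did not overlap and they span the range of level.
FOS: ttttaattTATTTATtaagatgg
IER3: ctaattaaTATTTATatgtattt
FOSL1: gcagctgcTATTTATtttcctaa
JUND, which was higher, also held TATTTAT, so the word was present in genes that moved both ways.

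Among 30 other immediate early genes 22 were tested, of which 4 were lower and 1 higher, beside 9.85% lower and 6.07% higher over all genes tested. The higher count is no more than that background. The list's median log2 fold change was -0.19, beside 0.02 over all genes tested. GADD45B, a growth arrest and stress gene, had 20.4, 19.9 and 21.1 FPKM in siSHMT2, against 39.0, 42.4 and 44.1 FPKM in siNC, so that its siSHMT2 mean was 48.9% of its siNC mean (limma adjusted p = 0.000840). MAFF, a small MAF factor that also carries a leucine zipper, fell by 0.85 (adjusted p = 0.00226). The 1 gene called higher is not described here. GADD45B and MAFF kept their calls in all 15 alternatives. PHLDA1, a signalling adaptor, fell by 0.47 (adjusted p = 0.0189), and lost the call when siNC replicate 3 was left out (0.0508), or siSHMT2 replicate 1, 2 or 3 (0.0943, 0.0826 and 0.0882), at log2 fold changes from -0.48 to -0.46. Without siNC replicate 2 the list had 9 lower, and 2 lower without siSHMT2 replicate 1, 2 or 3. It had 9 lower and 3 higher with array weights, 4 and 3 with voom, and 3 and 2 after rescaling to TPM. The EGR relatives EGR2, EGR3 and EGR4 and the nuclear receptors NR4A1, NR4A2 and NR4A3 all averaged below 1 FPKM in both groups.

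Of 24 other leucine zipper factors 20 were tested, of which 4 were lower and 2 higher, beside 9.85% lower and 6.07% higher over all genes tested, with a median of 0.03. BATF2, an AP-1 inhibitor of the BATF family, had 2.73, 2.34 and 2.27 FPKM in siSHMT2, against 4.39, 5.27 and 5.91 FPKM in siNC, and fell by 0.84 (limma adjusted p = 0.00357). BACH1, a repressor of antioxidant genes, and NFE2L2, the activator NRF2 that competes with it, fell by 0.63 and 0.79 (adjusted p = 0.00465 and 0.00770). BACH1 lost its call after rescaling to TPM (0.0519, log2 fold change -0.62). NFE2L1, a relative of NFE2L2 that controls proteasome genes, rose by 0.64 (adjusted p = 0.00824). Without siNC replicate 1 the list had 4 higher genes, and without each other library 1.

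Of 27 upstream kinases and serum response factors 22 were tested, and 2 were lower and 0 higher by limma, beside 9.85% lower and 6.07% higher over all genes tested, with a median of -0.01. The lower count is near that background and is no result about the list. MAPK14, the stress kinase p38 alpha, had 4.99, 5.28 and 5.05 FPKM in siSHMT2, against 7.45, 7.19 and 7.81 FPKM in siNC, and fell by 0.47 (limma adjusted p = 0.00989). That call was lost after rescaling to TPM (0.0930) and when siSHMT2 replicate 1 or 3 was left out (0.0669 and 0.0554), at log2 fold changes from -0.47 to -0.43. SRF, which drives many immediate early promoters, had 13.4, 13.3 and 12.1 FPKM in siSHMT2, against 17.4, 18.6 and 17.2 FPKM in siNC, and fell by 0.43 (adjusted p = 0.0215). Its call was lost when siSHMT2 replicate 1, 2 or 3 was left out (0.0900, 0.0777 and 0.112), at log2 fold changes from -0.45 to -0.38, and after rescaling to TPM (0.117), with FPKM from plain read sums (0.0580) or with voom (0.0584), at -0.35, -0.36 and -0.38. MRTFA, the SRF coactivator, had a log2 fold change of 0.43 (adjusted p = 0.0522) and the kinase RPS6KA3 one of 0.37 (0.0571). MRTFA passed without siNC replicate 3 (0.0246, log2 fold change 0.55), at a mean of at least 5 FPKM (0.0441), with plain read sums (0.0403) and with voom (0.0249). RPS6KA3 passed without siNC replicate 1 (0.0230, log2 fold change 0.46) and with array weights (0.00301). After rescaling to TPM the list had 0 lower and 1 higher, and 0, 1 and 0 lower when siSHMT2 replicate 1, 2 or 3 was left out.

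Of 28 reported AP-1 targets, 13 of the 24 tested were called lower and 0 higher by limma, beside 9.85% lower over all genes tested, with a median of -0.51. The 13 include the chemokine CCL2, at 0.603 FPKM in siSHMT2 and 2.20 FPKM in siNC. They also include the matrix protein gene SPP1, at 0.830 FPKM in siSHMT2 and 1.56 FPKM in siNC. CCL2 and SPP1 passed the filter only through siNC, and the list was chosen with earlier results of these data known. The count is therefore a description. CXCL8, a neutrophil chemokine, had 6.10, 6.82 and 6.55 FPKM in siSHMT2, against 46.2, 50.8 and 47.5 FPKM in siNC. PLAU, the urokinase plasminogen activator, had 6.22, 6.59 and 6.50 FPKM in siSHMT2, against 18.7, 21.8 and 24.5 FPKM in siNC. The cytokine IL6 had 1.51, 2.25 and 2.54 FPKM in siSHMT2, against 7.10, 9.51 and 7.92 FPKM in siNC. CXCL8, PLAU and IL6 fell to 13.5%, 29.7% and 25.6% of their siNC means (limma adjusted p = 2.08e-05, 0.000261 and 0.000822) and were called in all 15 alternatives. They are regulated by other factors as well, among them NF-kB, and the part of AP-1 in their values was not tested. The count was 8 lower when siSHMT2 replicate 1, 2 or 3 was left out. In those fits fewer of all genes were called as well (498, 592 and 547 lower, against 1070 with all libraries).

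Of 14 EGR1 corepressors and reported EGR1 targets 8 were tested, and 5 were lower and 0 higher. Over all genes tested 9.85% were lower and 6.07% higher. The list had a median of -0.49 and was chosen with earlier results of these data known, so the count is a description. EGR1 itself was not called, and the part of EGR1 in these values was not tested. NAB2, a corepressor that EGR1 induces and that limits it, had 4.58, 4.55 and 4.62 FPKM in siSHMT2, against 6.41, 6.42 and 6.57 FPKM in siNC, and fell by 0.42 (limma adjusted p = 0.0138). Leaving out siSHMT2 replicate 1, 2 or 3 ended the call (0.0807, 0.0664 and 0.0668), at log2 fold changes of -0.42 in each, as did rescaling to TPM (0.117), plain read sums (0.0589) and voom (0.0980), at -0.38, -0.36 and -0.42. FGF2, tissue factor F3 and PDGFA, a ligand of PDGF receptors, fell by 0.88, 1.61 and 0.57 (adjusted p = 0.00147, 0.00179 and 0.00791). PDGFA lost its call without siSHMT2 replicate 1 (0.0543, log2 fold change -0.53) and after rescaling to TPM (0.0755, log2 fold change -0.54). Without siSHMT2 replicate 1, 2 or 3 the list had 2, 3 and 3 lower genes, and 2 after rescaling to TPM.

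**Figure D4:**
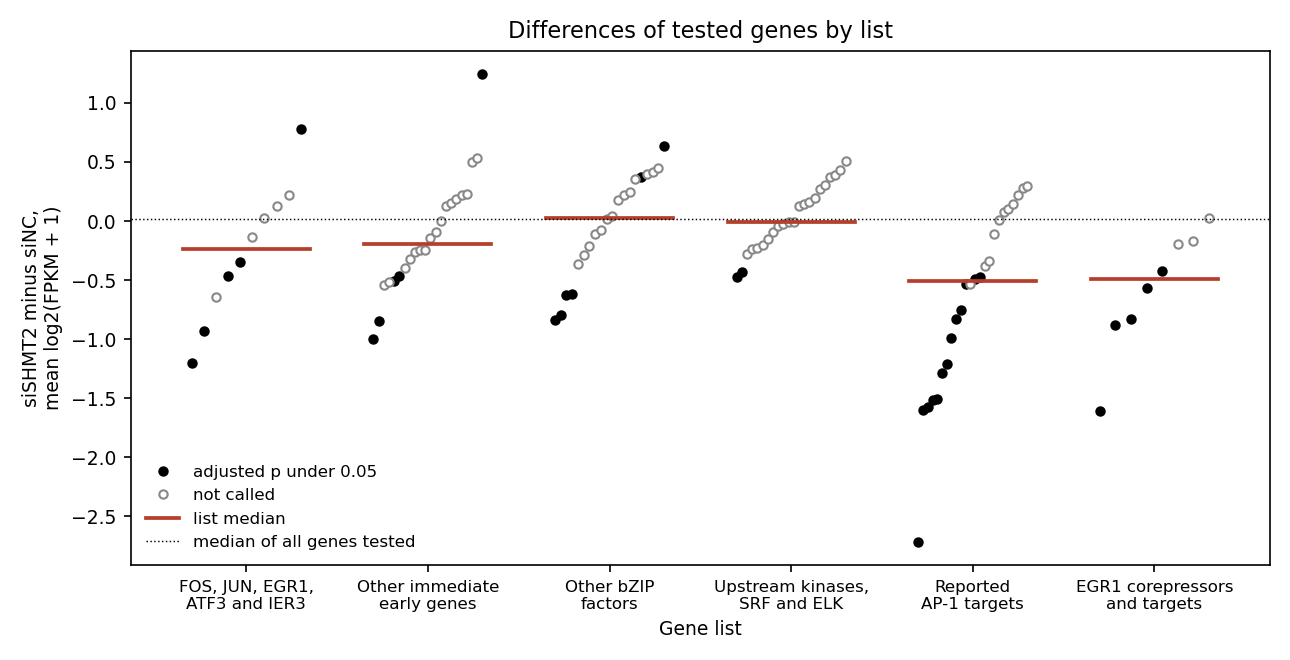
siSHMT2 minus siNC difference of mean log2(FPKM + 1) (y axis) for every tested gene of each list (x axis), filled where the adjusted p was under 0.05, with list medians in red and the median of all genes tested dotted. The reported AP-1 targets have a median of -0.51 and no filled point above 0, while the bZIP and kinase lists have medians of 0.03 and -0.01.

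The genes with profiles most like those of the 3 most abundant factors were found by the root-mean-square difference of centred log2(FPKM + 1) values over the 6 libraries, among tested protein-coding genes. For FOSL1 these were HOXB5, a homeobox factor, and SH3RF3, a ubiquitin ligase, among others, at differences of 0.0744 and 0.0754. HOXB5 had 3.45, 2.92 and 3.01 FPKM in siSHMT2, against 7.17, 9.06 and 8.62 FPKM in siNC. For JUND they were VOPP1, WBP4 and FAM214B at 0.0996, 0.116 and 0.129, and for JUN PTGER4, CEP70 and MRE11 at 0.0220, 0.0256 and 0.0267. Likeness over 6 libraries is a description of these libraries.

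**Figure D5:**
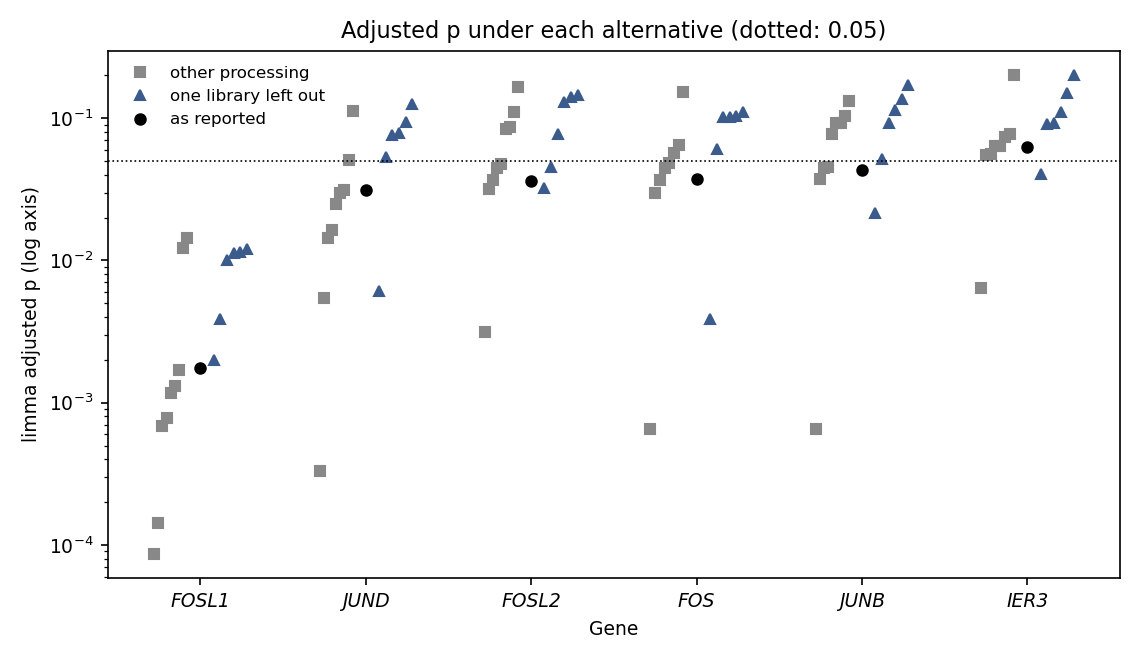
limma adjusted p on a log axis for 6 genes as reported (black circles), under other processing (grey squares) and with a library left out (blue triangles), with the threshold of 0.05 dotted. All FOSL1 points lie under the line, while those of JUND, FOSL2, FOS and JUNB lie on both sides of it, and IER3 falls under it in 2 alternatives.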

How the data were processed

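The authors deposited 1 table of FPKM values for 60623 genes of 6 libraries, with gene lengths in bases. HISAT2 2.0.5, featureCounts 1.5.0-p3 and the build hg18 are named per the submitters' processing notes. A SMARTer mRNA kit was applied to total RNA, per the labels' protocols. The table's gene coordinates overlapped those of GENCODE release 29 (GRCh38) for 99.99% of 58457 shared identifiers, so they are printed as in the table, which matches GRCh38. Groups and replicate numbers come from the sample titles.

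Reads were recovered from FPKM and gene length, and came out whole for 100% of values (tolerance 0.02). The library totals that the FPKM imply were 0.957 to 1.13 times the recovered sums, and the sources used here do not say how they were set. The 0.957 was that of siNC replicate 2, and the other libraries ran from 1.02 to 1.13. The part of this scaling in the siNC replicate 2 values was not tested. The deposited unit is FPKM, so the reported tests use no count model, although reads could be recovered. An alternative with voom was run on the recovered reads. limma 3.58.1 in R 4.3.3 was run on log2(FPKM + 1) with an intensity trend, for genes with a mean of at least 1 FPKM. It was also run on simulated reads scaled by plain read sums, unlike the deposited FPKM, and no result here rests on that run. Alternatives covered pseudocount, filter, scaling, trend, array weights, voom, a replicate block and leaving out each library. The genes, lists and tests were chosen with earlier results of these data known. Besides the 10 genes and SHMT2, the text names the 4 tested genes of each list with the smallest adjusted p and the 3 nearest profiles, apart from a few that are not reported here. Further genes were named after their values were seen: FOSL1P1, ERCC1, HOOK2, CCL2, SPP1, and the EGR and NR4A relatives.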

Additional observations from a re-analysis of the deposited data

How the results depend on the processing

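FOSL1 and SHMT2 kept direction and call in all 15 alternatives. The number of the 10 genes called lower, 4 as reported, was 2 with no filter, 1 after rescaling to TPM and 1 with FPKM from plain read sums. It was 2 with voom, 5 with array weights, and 1 to 4 when a library was left out. The number called higher, 1 as reported, was 0 with no filter and 0 to 1 when a library was left out. Of all genes, 333 were higher and 603 lower with no filter, 618 lower at a mean of at least 5 FPKM (where fewer genes were tested), 620 lower after rescaling to TPM, 1827 higher and 1976 lower with array weights, and 229 to 729 higher and 498 to 1132 lower when a library was left out. Reported AP-1 targets called lower numbered 8 to 13 when a library was left out. With array weights 16 of them were lower and 2 higher. The median over all genes was 0.11 after rescaling to TPM and 0.10 with voom, against 0.02 as reported; FOSL1 was at -1.11 and -1.13 there. Same-numbered libraries did not deviate together (correlations of -0.0183, -0.349 and 0.243), so the replicate block was not used for the text's results. With the replicate block 374 genes were higher and 696 lower, and 0 and 2 of the 10 genes. JUND, FOSL2 and JUNB then lost their calls (limma adjusted p = 0.0506, 0.110 and 0.0776). So did SRF, PHLDA1 and NAB2 (0.0688, 0.0678 and 0.0573). Directions reversed for uncalled genes when a library was left out: FOSB ran from -0.0512 to 0.1295 (negative without siNC replicates 1 and 3 and siSHMT2 replicate 2), JUN from -0.0053 (without siNC replicate 2) to 0.2273, and EGR1 from -0.3401 to 0.0731 (without siNC replicate 1). The cause of these shifts was not tested. FOS and IER3 rest on 8 to 176 reads a library, FOSB on 80 to 108 and ATF3 on 56 to 111, which limits the precision of all 4.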
